A study of Mus musculus with 20 samples.

Results

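The adenylyl cyclase (AC) genes Adcy1 to Adcy9 encode the membrane-bound enzymes that make cAMP, and they were followed here on every array of a study of conditioned fear (CF) learning. A gene was taken as a member when a transcript cluster, the probe group that reports a gene or part of it, was paired with its symbol alone. All 9 genes had 1 such transcript cluster each. The arrays report 28853 transcript clusters, of which 21789 were paired with 1 symbol alone, and these cover 19938 genes. Tissue was punched from the hippocampus and the amygdala of 2 mo old male C57BL/6 mice, either WT or DKO, which lack AC1 and AC8 because Adcy1 and Adcy8 are disrupted from birth. Mice were killed untreated (baseline), directly after a training trial of 5 min with 1 shock of 0.7 mA for 2 sec (0 hr), later on (1 hr and 48 hr), or 1 wk past training once a testing trial was done. The 20 Affymetrix Mouse Gene 1.0 ST arrays held 1 array per region, genotype and time point, with RNA of 5 to 10 mice pooled on each, so each of the 4 groups of region and genotype had 5 arrays.

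The groups have limits as models. WT mice were C57BL/6 mice that were not littermates of the DKO mice. The DKO mice came from the matings that produced AC8 rescue mice. Doxycycline was given up to weaning, and the mice carried the tetop-AC8 transgene alone, the CaMKII-tTA transgene alone (driven by a forebrain promoter) or neither. An effect of genotype can therefore not be told apart from the origin of the mice, these transgenes or doxycycline. The arrays of a group differ in time point, so the spread that the tests use contains any effect of time, and whether both regions came from the same mice is not stated.

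Membrane-bound ACs convert ATP to cAMP, which acts through protein kinase A, Epac proteins and cyclic nucleotide-gated channels. The isoforms respond to different signals. AC1 and AC8 are stimulated by Ca2+ and calmodulin, and AC3, known from the cilia of olfactory and other neurons, is commonly placed beside them. AC2, AC4 and AC7 are stimulated by G protein βγ subunits together with Gαs. AC5 and AC6 are inhibited by Ca2+ and by Gαi, and AC5 is the major isoform of the striatum. AC9 is largely insensitive to forskolin. In the hippocampus and amygdala the Ca2+-stimulated isoforms are known for coupling neuronal activity to cAMP in memory.

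The primers that the study designed for AC8 mRNA are shown because Adcy8 is a disrupted gene and the member with the largest difference between genotypes. Both are assigned to Adcy8, on chromosome 15, and they are 22 and 20 bases long. The RT-PCR made with them was not analysed here.
Adcy8 forward: cacacttacctgcaatacagcg
Adcy8 reverse: gctcgtcctccacattggtc

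Promoters of 3 members are shown because these genes differed most between the regions of WT mice, Adcy1 and Adcy9 toward the hippocampus and Adcy5 toward the amygdala. Each runs from 250 bases before to 50 bases after the gene's start in RefSeq (GRCm38.p6). They lie at chr11:7063183-7063482 on the + strand (Adcy1), chr16:35154614-35154913 on the + strand (Adcy5) and chr16:4420449-4420748 on the - strand (Adcy9). Capitals mark the core of the cAMP response element, TGACG, searched on both strands, which is contained in the full element TGACGTCA.
Adcy1: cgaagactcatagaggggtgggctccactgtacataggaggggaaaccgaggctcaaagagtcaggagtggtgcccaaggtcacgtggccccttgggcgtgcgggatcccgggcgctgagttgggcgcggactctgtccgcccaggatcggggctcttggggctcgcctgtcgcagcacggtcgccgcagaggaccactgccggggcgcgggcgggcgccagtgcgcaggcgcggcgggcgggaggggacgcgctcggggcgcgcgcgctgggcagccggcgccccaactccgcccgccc
Adcy5: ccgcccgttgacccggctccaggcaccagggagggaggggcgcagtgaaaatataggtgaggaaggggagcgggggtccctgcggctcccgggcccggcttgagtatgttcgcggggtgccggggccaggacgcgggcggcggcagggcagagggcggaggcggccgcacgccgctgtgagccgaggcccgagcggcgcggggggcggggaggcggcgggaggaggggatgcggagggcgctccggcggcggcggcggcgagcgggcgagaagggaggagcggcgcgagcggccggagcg
Adcy9: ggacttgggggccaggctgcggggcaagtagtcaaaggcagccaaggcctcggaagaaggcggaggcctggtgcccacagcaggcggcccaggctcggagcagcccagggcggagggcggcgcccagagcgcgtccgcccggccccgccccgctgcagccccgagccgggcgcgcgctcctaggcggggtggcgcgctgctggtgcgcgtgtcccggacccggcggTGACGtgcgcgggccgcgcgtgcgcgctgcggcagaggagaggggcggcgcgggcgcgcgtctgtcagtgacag

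A promoter was found for 7 of the 9 members, 10 promoters in all. The core was present in 2 of the 10, that of Adcy9, where it begins 24 bases before the start, and 1 of Adcy7. Of all 32851 promoters of the same length, 20.8% held the core on either strand. The full element was in none of the 10 and in 1.79% of all promoters. The promoters of Adcy1, Adcy5 and Adcy9 were 74.0%, 79.0% and 78.3% G and C.

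All values are log2 values that the authors computed with RMA, where a difference of 1 is a factor of 2, and levels of different genes are not set against each other because each has its own probes. The medians of the 20 arrays lay between 6.64 and 6.83, and correlations between arrays between 0.983 and 0.9968. The DKO arrays at 48 hr had the lowest means in each region, 6.78 in the amygdala and 6.80 in the hippocampus, against 6.84 to 6.93 elsewhere. Markers of hippocampal and amygdala neurons mostly followed the labelled tissue. Between regions (limma, adjusted p under 0.05), 8 of 13 hippocampal neuron genes were higher and 2 lower in the hippocampus, in each genotype. Of 10 amygdala neuron genes, 7 in WT and 8 in DKO mice were lower there and 1 higher in each. Genes of tissues that are not labelled differed too. Of 10 thalamic genes, 5 in WT and 8 in DKO mice were higher and none lower. Of 13 striatal neuron genes, 11 were lower and none higher in each genotype. Over all transcript clusters, 3.12% were higher and 5.46% lower in WT mice, and 9.92% and 9.06% in DKO mice. Prox1 (dentate gyrus) was 9.28 in WT and 9.49 in DKO hippocampus against 6.93 and 6.81 in the amygdala, and Nr2f2 was 8.93 in the amygdala of both genotypes against 7.12 and 7.18 in the hippocampus. A choroid plexus list of 10 genes swung between 7.12 and 8.51 on single arrays in both regions and genotypes.

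**Figure D1:**
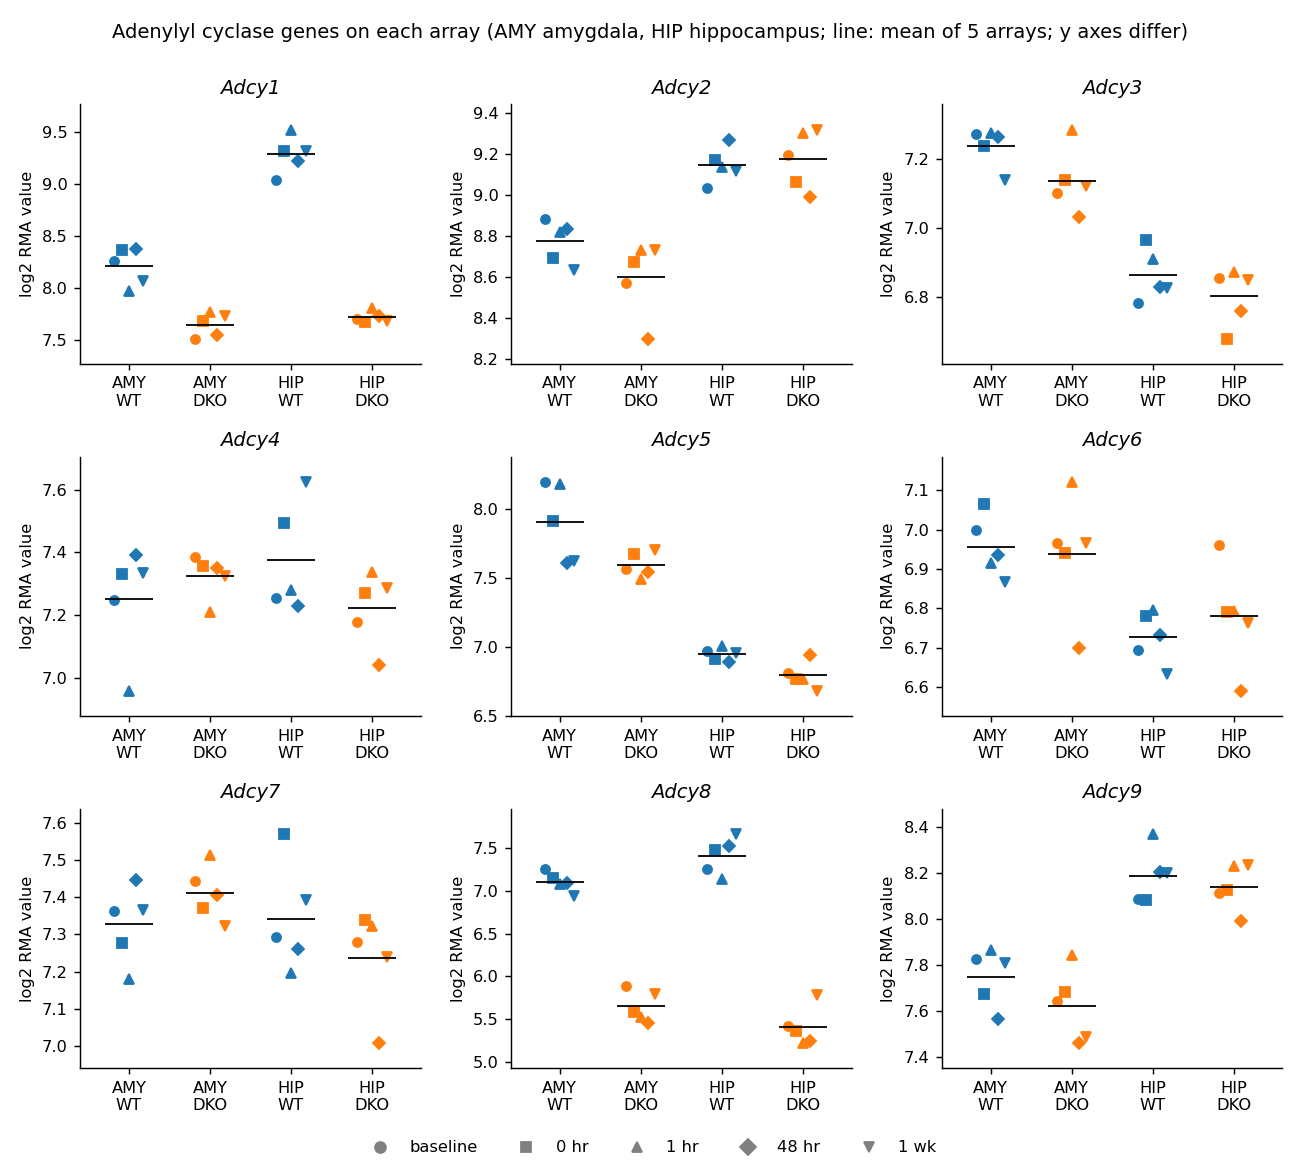
Log2 RMA values (y axis, its range differs between panels) of the 9 AC genes on each of the 20 arrays, by region and genotype (x axis). Marker shape gives the time point and the black line the mean of the 5 arrays; Adcy1 and Adcy8 are lower in DKO mice in both regions without overlap, Adcy5 and Adcy3 are higher in the amygdala, and Adcy2 and Adcy9 in the hippocampus.

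The genotype comparison asks which AC genes differ between DKO and WT mice across the time points, and it first checks the disrupted genes. Differences were tested with limma within a region, adjusted over all transcript clusters by Benjamini-Hochberg, and an adjusted p under 0.1 was called. Of the 9 genes, 2 passed in the amygdala, where 0.0970% of all transcript clusters did, and 2 in the hippocampus, where 0.118% did. Both were Adcy1 and Adcy8, lower in DKO mice; 0.0936% and 0.101% of all transcript clusters were called lower in the amygdala and the hippocampus. The share whose groups did not overlap was 0.863% in the amygdala and 1.73% in the hippocampus. Adcy1 and Adcy8 were the only members among them in either region.

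Adcy8 in the amygdala of WT mice was 7.26 at baseline, then 7.15 (0 hr), 7.08 (1 hr), 7.09 (48 hr) and 6.94 (1 wk). The DKO arrays gave 5.89, 5.59, 5.52, 5.46 and 5.80 in the same order. In the hippocampus, WT arrays gave 7.25, 7.48, 7.14, 7.52 and 7.66 and DKO arrays 5.42, 5.37, 5.22, 5.25 and 5.79. Every DKO array lay more than 1 log2 unit below every WT array of its region. DKO mice were lower by −1.45 in the amygdala (limma, adjusted p = 1.65e-06, standard error 0.093, 5 against 5 arrays), a fall of 2.74-fold. The hippocampal difference was −2.004 (limma, adjusted p = 1.76e-07, standard error 0.111), a fall of 4.01-fold.

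Adcy1 fell too, and by an amount that differed between the regions. WT amygdala arrays gave 8.26, 8.37, 7.97, 8.38 and 8.07 from baseline to 1 wk, and DKO amygdala arrays 7.51, 7.68, 7.77, 7.55 and 7.73. WT hippocampus arrays gave 9.04, 9.32, 9.53, 9.23 and 9.32, and DKO hippocampus arrays 7.71, 7.67, 7.80, 7.73 and 7.68. The 2 genotypes did not overlap in either region, while the DKO arrays of the regions overlapped each other. The difference between genotypes was −0.56 in the amygdala (limma, adjusted p = 0.0181, standard error 0.092, 1.48-fold lower). It was −1.57 in the hippocampus (limma, adjusted p = 5.22e-08, standard error 0.077, 2.96-fold lower). The amygdala call was lost without the DKO array at 48 hr (adjusted p = 0.115) and with the methods' t-test after Benjamini-Hochberg (adjusted p = 0.389). Where the probes of Adcy1 and Adcy8 lie relative to the disrupted parts of the genes is not given in the sources used here, so the level that remains in DKO mice cannot be read as intact mRNA or as background.

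The difference between the regions in the genotype effect was tested itself over all 20 arrays at an adjusted p of 0.05. For Adcy1 it was −1.01 (95% interval −1.256 to −0.754, adjusted p = 0.000574 by limma), and Adcy1 ranked first of all transcript clusters by p. For Adcy8 it was −0.55 (95% interval −0.868 to −0.234), which did not pass the limit (adjusted p = 0.241 by limma). Of all transcript clusters, 0.0104% passed, and Adcy1 was the only member among them. On the hippocampal arrays, a list of 10 thalamic genes averaged 7.93 in DKO mice (range 7.78 to 8.21) and 7.56 in WT mice (7.38 to 7.87). None of the 10 genes passed between genotypes, and the part of this list in the hippocampal values was not tested.

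Whether the other 7 AC genes differed between genotypes was tested in the same fits. None of them passed in either region, with adjusted p-values from 0.646 to 0.944 in the amygdala and from 0.399 to 0.894 in the hippocampus. In each region 5 of the 7 had a negative and 2 a positive difference. Their median differences were −0.10 (amygdala) and −0.06 (hippocampus), against −0.01 and −0.02 over all transcript clusters. The 95% intervals of the 7 genes ran from −0.552 at the lowest to 0.252 at the highest in the amygdala, and from −0.331 to 0.196 in the hippocampus, so that none reached a change of 1.5-fold (0.58 on the log2 scale) in either direction.

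Among these genes, Adcy5 had the largest difference in the amygdala, −0.31 (95% interval −0.552 to −0.067, limma, adjusted p = 0.646). Its hippocampal difference was −0.15 (95% interval −0.28 to −0.029, limma, adjusted p = 0.399). It was lower in DKO mice at 4 of 5 time points in each region. In the amygdala its genotypes overlapped, because the WT arrays at 48 hr (7.61) and 1 wk (7.62) lay within the DKO range of 7.49 to 7.70. Adcy3, commonly placed beside the Ca2+-stimulated isoforms, differed by −0.10 (95% interval −0.251 to 0.048) in the amygdala and −0.06 (−0.188 to 0.068) in the hippocampus. Adcy2 differed by −0.17 (−0.364 to 0.021) and 0.03 (−0.127 to 0.182), Adcy9 by −0.13 (−0.314 to 0.063) and −0.05 (−0.196 to 0.099). Adcy6, the close relative of Adcy5, differed by −0.02 (−0.19 to 0.156) and 0.05 (−0.092 to 0.196). Adcy4 and Adcy7 were the pair with a positive difference in the amygdala, 0.07 (−0.109 to 0.252) and 0.09 (−0.07 to 0.24), and a negative one in the hippocampus, −0.15 (−0.331 to 0.024) and −0.11 (−0.277 to 0.066).

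**Figure D2:**
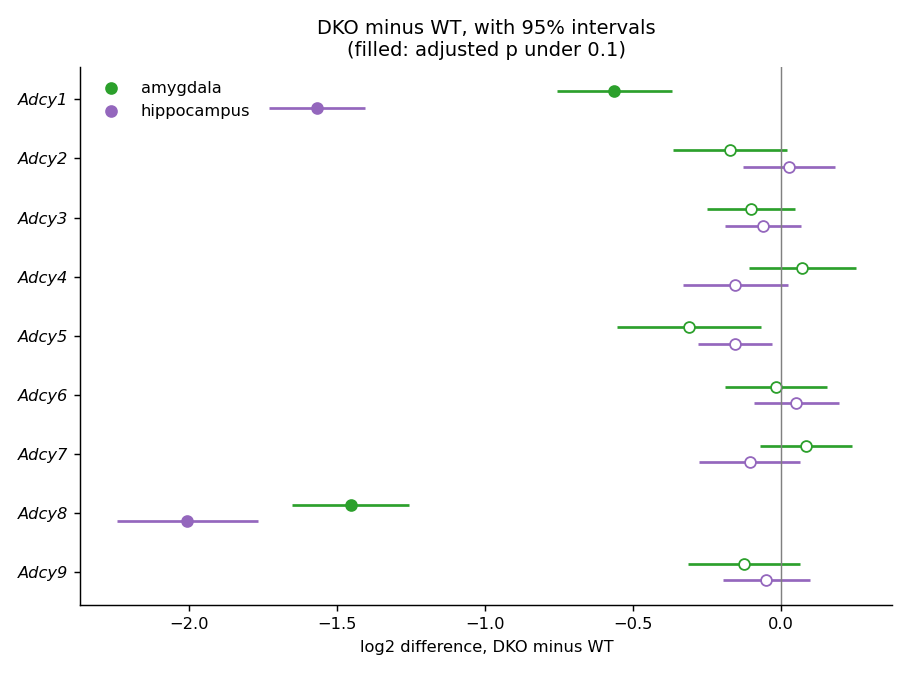
Difference between DKO and WT mice (x axis, log2 units) for the 9 AC genes in the amygdala and the hippocampus, with 95% intervals from limma over 5 arrays per genotype; filled points passed an adjusted p of 0.1. Adcy1 and Adcy8 are lower in both regions, with −1.57 for Adcy1 and −2.004 for Adcy8 in the hippocampus, and the intervals of the other 7 genes stay between −0.552 and 0.252.

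The comparison of the regions asks where each AC gene is expressed more. It was tested within a genotype, hippocampus minus amygdala, and an adjusted p under 0.05 was called. In WT mice 6 of the 9 genes passed, where 8.58% of all transcript clusters did. Adcy1, Adcy2 and Adcy9 were higher in the hippocampus, as were 3.12% of all transcript clusters, and Adcy3, Adcy5 and Adcy6 were lower, as were 5.46%. In DKO mice 4 of the 9 genes passed, where 19.0% of all transcript clusters did. Adcy2 and Adcy9 were higher in the hippocampus, as were 9.92% of all, and Adcy3 and Adcy5 lower, as were 9.06%. With each array centred on its median, the calls in DKO mice split into 4860 higher and 1890 lower transcript clusters, against 2862 and 2615 as deposited, and the same 4 members stayed called in the same direction. The genes that passed were also those whose arrays did not overlap between regions, 6 in WT mice (9.22% of all transcript clusters) and 4 in DKO mice (13.5%). Tissue punches hold many cell types, so fewer cells of a type and less RNA per cell cannot be told apart in any of these values.

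Adcy5 had the largest fall toward the hippocampus. Amygdala arrays of WT mice gave 8.20, 7.91, 8.18, 7.61 and 7.62 from baseline to 1 wk, and those of DKO mice 7.57, 7.67, 7.49, 7.54 and 7.70. The hippocampus gave 6.97, 6.91, 7.002, 6.89 and 6.96 in WT mice and 6.81, 6.76, 6.77, 6.94 and 6.68 in DKO mice. Every amygdala array of either genotype lay above every hippocampal array. The difference was −0.96 in WT mice (standard error 0.112, adjusted p = 7e-05 by limma) and −0.80 in DKO mice (standard error 0.070, adjusted p = 3.44e-07). The spread within the WT amygdala, an SD of 0.288, stood beside SDs of 0.044 to 0.096 in the other 3 groups.

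Adcy5 moved together with genes of striatal neurons. A list of 13 genes that mark these neurons, among them the dopamine receptors Drd1 and Drd2 and the signalling protein Ppp1r1b, averaged 9.01, 8.72, 8.97, 8.53 and 8.52 on WT amygdala arrays from baseline to 1 wk. On the DKO arrays it averaged 8.41, 8.40, 8.35, 8.42 and 8.55. The WT arrays at baseline and 1 hr were the highest for Adcy5 and for the list alike. Over the 10 amygdala arrays the correlation of Adcy5 with the list was r = 0.979 (Spearman's rho 0.855, r = 0.892 without the 2 arrays farthest from the median of the list). Over the 10 hippocampal arrays, where the list lay between 7.49 and 7.77, it was r = −0.044. High values were not limited to this list or gene. In the amygdala, Adcy5 had r = 0.785 with a list of cyclase regulators and scaffolds (0.872 without the 2 farthest arrays). Adcy2 had r = 0.93 there with a list of G protein subunits. These values are a description, since the genes share arrays, tissue punches and normalization. Of the 13 list genes, 11 were lower in the hippocampus in WT and 11 in DKO mice, against 5.46% and 9.06% of all transcript clusters, with median differences of −1.12 and −0.76.

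**Figure D3:**
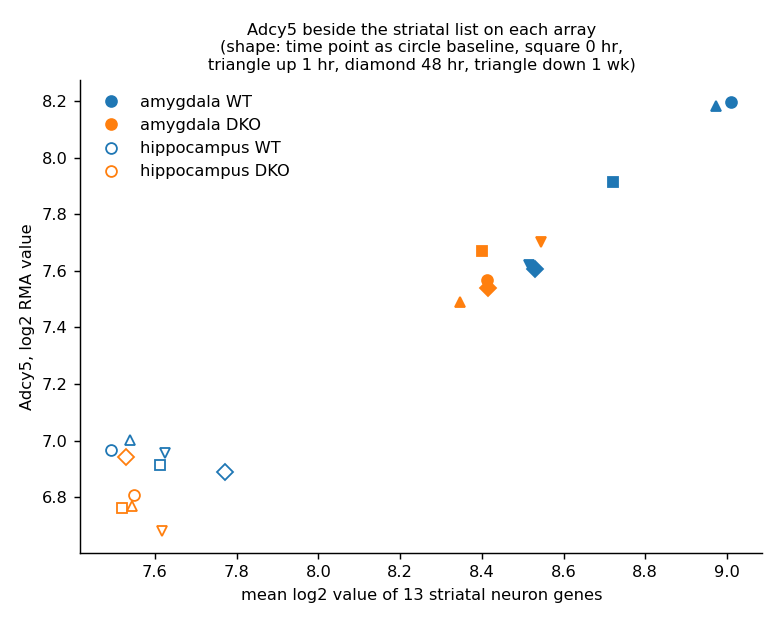
Adcy5 (y axis, log2 RMA value) beside the mean log2 value of 13 striatal neuron genes (x axis) on each of the 20 arrays. Filled markers are amygdala arrays and open markers hippocampal arrays, with WT in blue and DKO in orange; the WT amygdala arrays at baseline and 1 hr are the highest on both axes, and the 10 amygdala arrays follow a line (r = 0.979) that the hippocampal arrays do not (r = −0.044).

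Adcy6, the other isoform inhibited by Ca2+, differed less. WT amygdala arrays gave 6.998, 7.06, 6.91, 6.94 and 6.87 and WT hippocampus arrays 6.69, 6.78, 6.80, 6.73 and 6.63. The difference in WT mice was −0.23 (95% interval −0.359 to −0.096, adjusted p = 0.0315 by limma). That call was lost without any one of 6 of the 10 arrays (the amygdala arrays at baseline or 0 hr, or the hippocampal arrays at any time but 1 hr), with adjusted p-values from 0.0242 to 0.0968 over the 10 fits. In DKO mice the difference was −0.16 (95% interval −0.335 to 0.018, adjusted p = 0.187), and the arrays of the regions overlapped. At each of the 5 time points Adcy6 was lower in the hippocampus in both genotypes, with 6.962 against 6.965 in DKO mice at baseline. The time points were not taken as pairs, and this count of signs was not tested.

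Adcy3 was lower in the hippocampus in both genotypes. In the amygdala its values ran from 7.14 to 7.28 in WT and from 7.03 to 7.28 in DKO mice, and in the hippocampus from 6.78 to 6.97 and from 6.68 to 6.87. No hippocampal array reached the lowest amygdala array. The difference was −0.38 in WT mice (standard error 0.060, adjusted p = 0.000914 by limma) and −0.33 in DKO mice (standard error 0.068, adjusted p = 0.00264).

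Adcy9 and Adcy2 were higher in the hippocampus in both genotypes. Adcy9 was 7.83, 7.67, 7.87, 7.56 and 7.81 on WT amygdala arrays and 8.09, 8.08, 8.37, 8.20 and 8.20 on WT hippocampus arrays. DKO mice gave 7.65, 7.68, 7.84, 7.46 and 7.49 in the amygdala and 8.11, 8.13, 8.23, 7.99 and 8.24 in the hippocampus. The lowest hippocampal array of either genotype, 7.99, lay above the highest amygdala array, 7.87. The difference of Adcy9 was 0.44 in WT mice (standard error 0.077, adjusted p = 0.00196 by limma) and 0.52 in DKO mice (standard error 0.081, adjusted p = 0.000222).

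Adcy2, which responds to βγ subunits, ran from 8.63 to 8.88 in the WT amygdala and from 9.03 to 9.27 in the WT hippocampus. In DKO mice it ran from 8.30 to 8.73 and from 8.99 to 9.32, with the lowest value of each region at 48 hr. The regions were apart in both genotypes, by 0.37 in WT mice (standard error 0.068, adjusted p = 0.00268 by limma) and 0.57 in DKO mice (standard error 0.091, adjusted p = 0.000282). The other genes of this class did not pass in either genotype. Adcy4 differed by 0.12 (95% interval −0.087 to 0.334) in WT and −0.10 (−0.249 to 0.047) in DKO mice, and Adcy7 by 0.02 (−0.154 to 0.185) and −0.17 (−0.33 to −0.019, adjusted p = 0.104 by limma).

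The disrupted genes differed between regions in WT mice in unequal measure. Adcy1 was higher in the WT hippocampus by 1.08 (95% interval 0.862 to 1.291, adjusted p = 1.08e-05 by limma), a factor of 2.11, and all 5 hippocampal arrays lay above all 5 amygdala arrays. In DKO mice its regions differed by 0.07 (95% interval −0.073 to 0.216, adjusted p = 0.473). Adcy8 differed by 0.31 in WT mice (95% interval 0.101 to 0.515, adjusted p = 0.0682), was higher in the hippocampus at 4 of 5 time points, and its regions overlapped. In DKO mice the remaining Adcy8 signal differed by −0.24 (95% interval −0.468 to −0.019, adjusted p = 0.115).

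**Figure D4:**
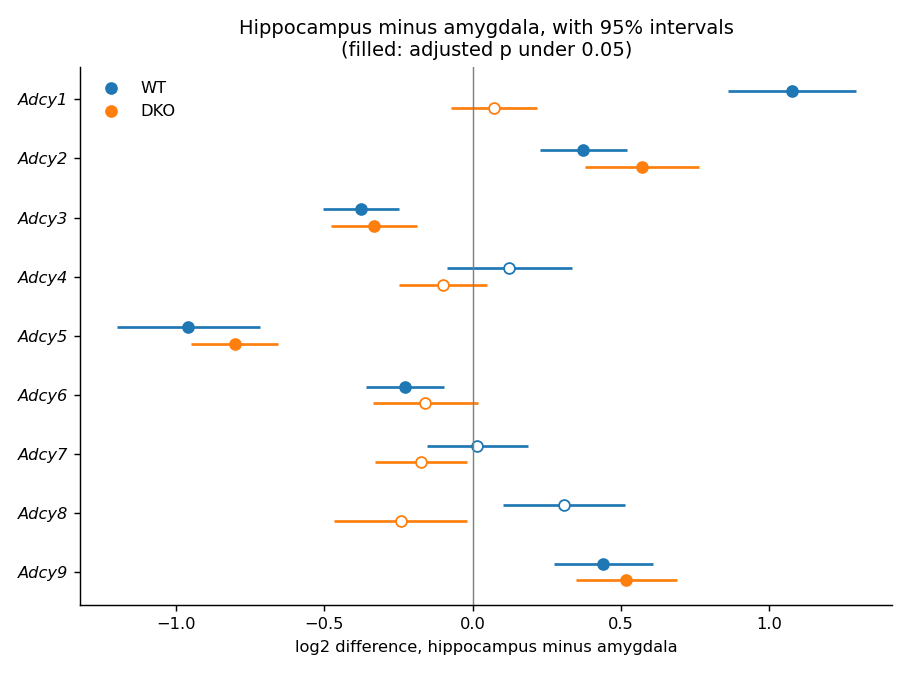
Difference between the hippocampus and the amygdala (x axis, log2 units, positive where the hippocampus is higher) for the 9 AC genes in WT and DKO mice, with 95% intervals from limma over 5 arrays per region; filled points passed an adjusted p of 0.05. Adcy2 and Adcy9 lie to the right and Adcy3 and Adcy5 to the left in both genotypes, while Adcy1 lies at 1.08 in WT and 0.07 in DKO mice.

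Ordered by group means, the genes formed a few patterns. For Adcy3 and Adcy5 both amygdala groups came first, and for Adcy2 and Adcy9 both hippocampal groups; in each case the genotypes within a region overlapped and the regions did not. Adcy1 fell from the WT hippocampus (9.29 ± 0.18, SD, n = 5) to the WT amygdala (8.21 ± 0.18) and the DKO groups (7.72 ± 0.05 and 7.65 ± 0.11), which overlapped. Adcy8 fell from the WT groups (7.41 ± 0.21 in the hippocampus and 7.10 ± 0.11 in the amygdala), which overlapped, to the DKO groups (5.41 ± 0.23 and 5.65 ± 0.19), which overlapped too. For Adcy6 the means of the amygdala groups were 6.96 ± 0.08 in WT and 6.94 ± 0.15 in DKO mice, above 6.73 ± 0.07 and 6.78 ± 0.13 in the hippocampus, and each neighbour in this order overlapped the next. Adcy4 group means lay between 7.22 and 7.38 and Adcy7 group means between 7.24 and 7.41, with overlap between all neighbours.

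The time points ask whether AC mRNA changes from baseline after CF training. With the 4 combinations of region and genotype serving as replicates, none of the 9 genes passed an adjusted p of 0.05 at any time. The shares of all transcript clusters that passed were 0.00347% (0 hr), 0.0243% (1 hr), 0% (48 hr) and 0.00347% (1 wk). At 1 hr, 1778 transcript clusters had an unadjusted p under 0.05 by limma, Adcy9 among them. At 48 hr there were 1036, Adcy6 among them. The values nearest to a change were Adcy9 at 1 hr, 0.16 (95% interval 0.004 to 0.314, adjusted p = 0.809 by limma), and Adcy6 at 48 hr, −0.16 (95% interval −0.324 to −0.004, adjusted p = 1). Adcy9 at 1 hr was above baseline in all 4 groups, by 0.04 to 0.28. Adcy6 at 48 hr was at −0.062 and 0.039 in the WT amygdala and hippocampus. In the DKO amygdala and hippocampus it was at −0.264 and −0.371, on the arrays with the lowest means of their regions. The 95% intervals of the 9 genes over the 4 times ran from −0.445 at the lowest to 0.346 at the highest, within 1.5-fold. The disrupted Adcy1 and Adcy8 of DKO mice are part of these fits.

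For 1 region and genotype alone, the change is 1 array compared with 1 other, and its values have no test. Only 1 of the 144 such changes of AC genes passed 1.5-fold, where 1.15% of the changes of all transcript clusters did. It was Adcy5 in the WT amygdala at 48 hr, with a log2 change of −0.59, where 1.84% of all transcript clusters fell past 1.5-fold. Its change at 1 wk was −0.57, and the striatal list on the same arrays went from 9.01 at baseline to 8.53 and 8.52. The quartile range of all values on these arrays went from 2.555 to 2.327 and 2.302. In the DKO amygdala Adcy5 stayed between −0.08 and 0.13 of its baseline.

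Other single-array changes were smaller. Adcy1 in the WT hippocampus was above baseline at each later time, by 0.28, 0.49, 0.19 and 0.28 from 0 hr to 1 wk. Amygdala arrays of WT mice gave 0.11, −0.28, 0.12 and −0.19 in this order. Adcy8 in the WT hippocampus reached 0.41 at 1 wk, and in the WT amygdala −0.32. The Adcy8 signal that remained in DKO mice moved by similar amounts. It was at 0.37 in the hippocampus at 1 wk. In the DKO amygdala it was at −0.44 at 48 hr and −0.096 at 1 wk. In the DKO hippocampus at 48 hr, where the array mean is the lowest of that region, Adcy6 was at −0.37, Adcy7 at −0.27 and Adcy2 at −0.21. In the DKO hippocampus 9 of 9 genes, the disrupted ones included, stayed within 0.2 of baseline at 0 hr and at 1 hr. On these arrays few of all 28853 transcript clusters passed 1.5-fold, 71 at 0 hr and 114 at 1 hr. The share of all transcript clusters within 0.2 was not computed, so this count is no result about AC genes.

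**Figure D5:**
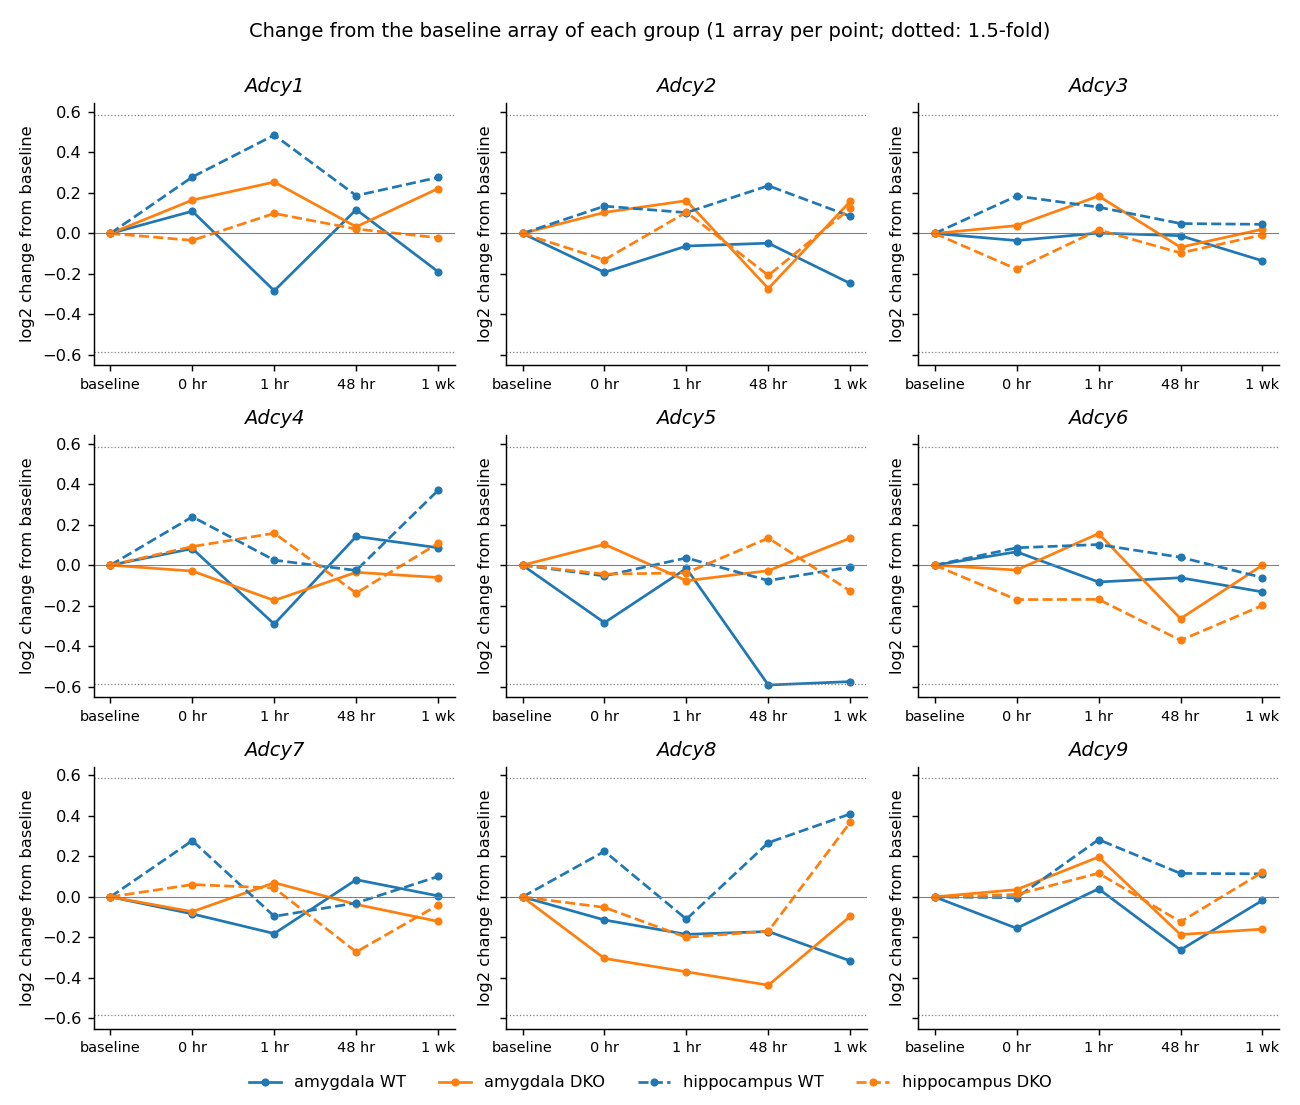
Log2 change from the baseline array of the same group (y axis) at each time point (x axis) for the 9 AC genes, with 1 array per point, WT in blue, DKO in orange, amygdala as solid and hippocampus as dashed lines. Dotted lines mark 1.5-fold, which only Adcy5 in the WT amygdala at 48 hr passes, with −0.59, and Adcy1 in the WT hippocampus reaches 0.49 at 1 hr.

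Around the cyclases, genes of the cAMP pathway were taken from 4 lists: G protein subunits, regulators and scaffolds of cyclases, cAMP effectors, and other nucleotide cyclases. In the genotype, interaction and time comparisons none of the 59 genes measured on these lists passed. Their median genotype differences lay between −0.18 (regulators) and 0.03 (other cyclases) in the amygdala and between −0.017 and −0.002 in the hippocampus.

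Between the regions, 5.46% of all transcript clusters were called lower and 3.12% higher in the hippocampus of WT mice, and 9.06% and 9.92% in DKO mice, which are the shares to set beside the counts of the lists. Of 21 G protein subunits, 10 were lower and 1 higher in WT mice, with a median difference of −0.21 against 0.00 over all transcript clusters, and 6 lower and 1 higher in DKO mice, with a median of −0.07 against −0.04. With each array centred on its median, the DKO count became 6 lower and 6 higher. The largest in WT mice were Gng4 (−0.79) and Gnb4 (−0.75), βγ subunits of the kind that AC2, AC4 and AC7 respond to, and Gnal (−0.55), the stimulatory α subunit of olfactory and striatal neurons. In DKO mice the difference was −0.99 for Gng4, −0.60 for Gnb4 and 0.03 for Gnal, which did not pass there (adjusted p = 0.857 by limma). Gng11 was higher by 0.42 in WT and 0.65 in DKO mice.

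The 15 regulators and scaffolds had median differences of −0.01 in WT and 0.001 in DKO mice. With each array centred on its median, 5 were lower and 1 higher in WT and 5 lower and 4 higher in DKO mice. As deposited, 7 of the 15 genes were lower and 2 higher in WT and 5 lower and 3 higher in DKO mice. They included Camk4 (−0.93 in WT, −0.69 in DKO mice), a Ca2+/calmodulin-dependent kinase of the kind that acts on cyclases, Rgs2 (−0.93 and −0.47), Ric8b (−0.75 and −0.38), a chaperone of stimulatory α subunits, and the kinase anchor Akap5 (−0.75 and −0.73). Camk2a was higher, by 0.44 and 0.48. Of 12 cAMP effectors, 4 were lower in WT and 3 in DKO mice and none higher; Prkacb, a catalytic subunit of protein kinase A, differed by −0.82 and −0.56, and the regulatory subunits Prkar2b by −0.75 and −0.37 and Prkar1b by −0.66 and −0.49. Of 11 other nucleotide cyclases, 2 were lower in WT mice, and 2 were lower and 1 higher in DKO mice, beside 8.58% and 19.0% of all transcript clusters called in either direction. Gucy1a1, a subunit of the soluble guanylyl cyclase that makes cGMP, had the largest difference, −1.50 and −1.10. The values given for single pathway genes are log2 differences, and each passed an adjusted p of 0.05 by limma, with the exception of Gnal in DKO mice. The medians of the lists were not tested.

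Genes with the most similar pattern were found for each AC gene by Pearson's r over the 20 arrays, as a description with no test. For Adcy5 they were Rgs9 (r = 0.978), Ppp1r1b (0.970) and Rxrg (0.966), the first 2 of which are on the striatal list. Adcy2 came with Cnih2 (0.970), Homer2 (0.968) and Map4 (0.965), and Adcy9 with Kdm7a (0.960), Rnf19a (0.955) and Sdcbp (0.951). For Adcy3 they were Cmip (0.966), Slc35f1 (0.953) and Nlk (0.953), and for Adcy6 Kif1a (0.881), Slc4a10 (0.880) and Rreb1 (0.872). Adcy8 came with Gm10590 (0.890), Lynx1 (0.885) and Slc11a2 (0.875), and Adcy1 with Lynx1 (0.857), Adcy8 (0.838) and Gm10590 (0.826). Once group means were removed, Adcy1 had r = 0.161 with Lynx1, −0.063 with Adcy8 and 0.341 with Gm10590. Adcy8 had r = 0.142 with Gm10590, 0.464 with Lynx1 and 0.519 with Slc11a2. For Adcy5, r was 0.832 with Rgs9, 0.697 with Ppp1r1b and 0.744 with Rxrg.

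Adcy4 and Adcy7 followed the median of all transcript clusters on each array (r = 0.661 and 0.726 over 20 arrays), while for the other 7 genes r with that median lay between −0.158 and 0.372. Once group means were removed, r with the array median was 0.64 for Adcy4 and 0.68 for Adcy7, but also −0.63 for Adcy5 and 0.411 for Adcy6. Their nearest genes were Vmn1r78 (0.861), Pate11 (0.860) and Kcng2 (0.859) for Adcy4, and Gucy2d (0.877), Mir103-1 (0.874) and Cyp8b1 (0.866) for Adcy7. The members were also set beside the quartile range of all transcript clusters on each array. Within groups, r with this range was 0.68 for Adcy5, 0.632 for Adcy2, 0.549 for Adcy9 and 0.499 for Adcy3. It was 0.387 for Adcy6, 0.255 for Adcy1, 0.187 for Adcy8, −0.43 for Adcy7 and −0.495 for Adcy4. The part of array-wide shifts in the values of the members was not tested. Within groups, Adcy4 and Adcy7 correlated with each other at r = 0.665, and Adcy2, Adcy3 and Adcy6 among themselves at 0.614 to 0.703, over 20 arrays that share normalization.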

How the data were processed

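Per the labels and the study's methods, the authors hybridised pooled RNA (RIN above 8) to 20 Affymetrix Mouse Gene 1.0 ST arrays. RMA in the Affymetrix Expression Console gave the deposited log2 values, which are background-corrected, quantile-normalized and summarized over probes. RMA pulls low and high signals together, so differences of weak genes can be understated, and the array design's genome build is not given in the sources used here. Gene names came from the platform annotation, in which 21789 transcript clusters have 1 symbol, 1621 several and 5443 none. The members and gene lists were chosen with earlier results of these data known.

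With no filter, limma (version 3.58.1, under R 4.3.3) fitted linear models with moderated variances to all 28853 transcript clusters, and p-values were adjusted by Benjamini-Hochberg. The study took the time points as replicates within a region, with a false discovery rate of 0.1; other comparisons used 0.05. The number of arrays limits the precision. The genes named are the members, pathway genes that passed (at most 6 per list) and the 3 nearest genes of each member. Alternatives were a further quantile normalization, median centring, a filter above the median level (passed by 8 of 9 members, not Adcy8), a variance trend with robust fitting, the methods' t-test, a replicate block, all 20 arrays in 1 fit, the other limit, 1 region alone and each array left out, with, added after the data were seen, both DKO arrays at 48 hr left out. The script was tested on simulated data. Counts and plots were made in Python 3.11.15 (pandas 2.3.3, numpy 2.4.6, matplotlib 3.10.9). Sequences came from RefSeq (GRCm38.p6) and the study's primer table.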

Additional observations from a re-analysis of the deposited data

Results flagged for a closer look

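In the WT amygdala, Adcy3 at 1 wk was 7.138, apart from the other 4 arrays, which lay between 7.238 and 7.275; the gap made up 0.73 of the whole range. This was 1 of 36 groups of 5 arrays looked at (9 genes in 4 groups), and chance flags about 1 in 20 such groups.

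The effect of genotype on Adcy1 differed between the regions by −1.005 on the log2 scale, lower in the hippocampus, by the test of that difference over all 20 arrays (adjusted p = 0.000574 by limma). WT mice had more Adcy1 in the hippocampus, while the DKO arrays of both regions overlapped.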

How the results depend on the processing

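Of 15 called differences of AC genes, 13 kept direction and call in every alternative that could test them, and no called value changed sign. Adcy1 in the amygdala lost its call with the methods' t-test (adjusted p = 0.389), with a replicate block of time points (0.182) and without the DKO array at 48 hr (0.115). Adcy6 in WT mice lost its regional call with median centring (0.0628), variance trend and robust fitting (0.056), all 20 arrays in 1 fit (0.0527), the replicate block (0.054) and without any of 6 arrays. Adcy8, uncalled between regions, was called in WT mice with a further quantile normalization (0.0356), without the hippocampal array at 1 hr (0.0215) and at the other limit, and in DKO mice with the replicate block (0.0235) and without the hippocampal array at 1 wk (0.0233). The cause of these changes was not tested.

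The time points were not taken as pairs: deviations from group means at 1 time point correlated between groups at −0.417 to 0.534, and for no pair of groups above 0.1 at all 5 time points. Between the regions of DKO mice, r was 0.102 to 0.238 at 4 time points and −0.039 at 0 hr, and the replicate block moved the count from 5477 to 7919. The block changed no other member's call. Members called for genotype in the amygdala fell from 2 to 1 under the filter (Adcy8 was not tested there), the methods' t-test and the replicate block, and in the hippocampus from 2 to 1 under the filter. Leaving out each array gave 1 to 2 and 2 to 2 members, 5 to 7 and 4 to 5 for the regions in WT and DKO mice, 1 to 1 for the interaction, and 0 to 0 for each time.

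Over all transcript clusters, the genotype count in the hippocampus was 55 with median centring (26 higher and 29 lower, against 5 and 29) and 26 to 73 without single arrays (73 without WT at 1 hr). The count for regions in DKO mice was 3196 with the methods' t-test. The interaction count was 1 under the filter and 2 to 5 without single arrays. At 0 hr and at 1 wk, 0 passed with quantile normalization, with median centring and in either region alone, and 0 to 3 and 0 to 1 without single arrays. At 1 hr, 1 passed in the amygdala alone, 0 in the hippocampus alone and 2 to 9 without single arrays. The number of arrays and of mice pooled on each limits what can be detected.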
